A study of Homo sapiens with 24 samples.

Results

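The ribosome biogenesis and nucleolar genes described here are 50 genes for ribosomal RNA transcription, ribosomal RNA processing and ribosome subunit assembly, taken by symbol from a list of such genes (UTP4 under its older symbol CIRH1A). The list was chosen with earlier results of these data known. All 50 were found among the 25365 rows of the deposited expression table, which covers 24 RNA-seq libraries. They comprise 5 genes of RNA polymerase I transcription, 7 of small nucleolar ribonucleoprotein (snoRNP) core and assembly, 5 multifunctional nucleolar proteins, 12 of the small-subunit (SSU) processome, 6 of pre-40S maturation and 15 of pre-60S assembly. The libraries come from PC9 and HCC4006, a pair of established EGFR-mutant non-small cell lung cancer cell lines, each present in a control form (CTRL) and in a form with the label YAP1 KO, a knockout of the transcriptional coactivator that the Hippo pathway restrains. Each genotype was given DMSO, the vehicle, or a combination of 100 nM osimertinib, an EGFR kinase inhibitor, and 30 nM trametinib, a MEK inhibitor, called OT here, for 24 h. This gave 8 groups of 3 libraries. The name DMSO comes from the sample titles, while the expression columns of these libraries are headed NOTX. They were matched by line, genotype and replicate. Both lines have 1 YAP1 KO derivative each by the column names, and the labels do not say how it was made or whether it is a clone. They also do not say whether the 3 libraries of a group came from separate cultures, so the p-values measure the spread between these libraries, which may be technical.

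Ribosomes are built in the nucleolus, where RNA polymerase I makes a long precursor RNA that snoRNPs modify and that the SSU processome and the pre-60S factors fold, cleave and assemble with ribosomal proteins. The process is costly and is raised in growing cells: ERK and mTOR signalling act on initiation factors of RNA polymerase I, and the transcription factor MYC is known to activate many of the genes for assembly factors. All values below are mRNA levels relative to the other RNA of the same library, so cell number and total RNA per cell are not seen. In bulk RNA a fall in every cell and a fall in only part of the cells cannot be told apart.

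The unit is FPKM, fragments per kilobase of transcript, scaled to the number of mapped fragments. The sum over all rows ranged from 604392 to 620813 in the PC9 DMSO libraries, 566982 to 593526 in the PC9 OT libraries, 621936 to 660459 in the HCC4006 DMSO libraries and 507120 to 574160 in the HCC4006 OT libraries, so it was lower under OT, and read depth is not given in the table. YAP1 mRNA was 42.9 ± 0.415 FPKM (SD, n = 3) in PC9 CTRL DMSO and 12.1 ± 0.398 (SD, n = 3) in YAP1 KO DMSO, and 18.2 ± 1.62 against 4.24 ± 0.344 (SD, n = 3) in HCC4006, so the YAP1 KO libraries were lower but not at 0. All 5 epithelial markers tested were present, with summed FPKM of 4122 to 5100.2 in PC9 DMSO, 5042 to 6689 in PC9 OT, 2379 to 2948 in HCC4006 DMSO and 1541 to 1766 in HCC4006 OT. None of 4 lung markers reached 1 FPKM in PC9 (SFTPC and SFTPB were at 0 in all PC9 DMSO libraries), while 2 of 4 did in HCC4006, where their sum was 16.4 to 23.7 under DMSO and 44.4 to 62.8 under OT. Of the 5 leukocyte markers 1 reached 1 FPKM under DMSO and 2 under OT in HCC4006, with sums of 21.0 to 23.9 and 82.6 to 110.1, and PC9 had 1 of 5 with sums of 29.4 to 39.9. CD3E was at 0 in all HCC4006 DMSO libraries. Fibroblast and endothelial markers summed to 2.37 to 3.56 and 0.224 to 0.397 FPKM in HCC4006 DMSO, 7.29 to 20.3 and 4.61 to 6.68 in HCC4006 OT, and at most 2.62 and 1.16 in PC9. DCN was at 0 in PC9 and in HCC4006 DMSO, and PECAM1 in HCC4006 OT. The part of these shifts in the results was not tested. A single library varied from its group: in HCC4006 CTRL OT, replicate 1 had NPM1 at 771 FPKM against 981 and 1005 in the others, and POLR1A at 2.36 against 1.46 and 1.14. It was the lowest of the 3 for 25 members and the highest for 16. Such counts are not particular to it, as PC9 CTRL DMSO replicate 2 was the lowest of its 3 for 26 members. Results that rest on the first HCC4006 CTRL OT library are marked, and values without it are given for part of them.

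Under DMSO the members spanned a wide range of FPKM levels. NPM1, the abundant histone and ribosome chaperone nucleophosmin, was highest at 1772 ± 26.9 FPKM in PC9 CTRL DMSO and 1706 ± 41.2 in HCC4006 CTRL DMSO (SD, n = 3). Nucleolin, NCL, came next, with mean FPKM of 393 in PC9 and 424 in HCC4006. POLR1A, the largest subunit of RNA polymerase I, was lowest at 3.82 ± 0.132 and 2.48 ± 0.0295 FPKM (SD, n = 3). The median member stood at 27 FPKM in PC9 and 35 FPKM in HCC4006. All but POLR1A were at 1 FPKM or more in all 24 libraries, and POLR1A fell short in 1 library (0.971 FPKM, HCC4006 YAP1 KO OT replicate 3), so every member passed the filter on low values. NPM1 has processed pseudogenes, RRN3 has pseudogene rows of its own in the table, PPAN has a readthrough row with P2RY11 and RRS1 an antisense row, so the levels of these 4 depend on how shared reads were assigned.

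OT lowered the whole set in control cells. All 50 members fell in PC9 and all 50 fell in HCC4006 (limma, Benjamini-Hochberg adjusted p under 0.05), against backgrounds of 40.9% of all 12685 tested genes called lower in PC9 and 36.6% of 13113 in HCC4006. The median log2 difference over the members was -0.72 in PC9, beside -0.04 over all tested genes, and -1.33 in HCC4006, beside 0.09 over all tested genes. A fall of at least 1 on the log2 scale was seen for 12 members in PC9, with a background of 4.6%, and for 37 in HCC4006, with a background of 9.74%. As a share of the summed FPKM of a library, the members made up 0.691 to 0.737% in PC9 DMSO and 0.463 to 0.477% in PC9 OT, and 0.666 to 0.699% in HCC4006 DMSO and 0.333 to 0.355% in HCC4006 OT. In YAP1 KO cells 49 members fell and 1, NOB1, rose in PC9 (backgrounds 41.4% lower and 36.9% higher, members' median -0.85), and all 50 fell in HCC4006 (backgrounds 36.5% lower and 46.4% higher, members' median -1.35). There 20 members fell by at least 1 on the log2 scale in PC9, with a background of 7.83%, and 35 in HCC4006, with a background of 11%. With every library rescaled to the same FPKM sum, the HCC4006 CTRL median of all genes moved from 0.09 to 0.27 and that of the members from -1.33 to -1.11, with 49 members called lower against a background that moved to 27.4% lower and 53.9% higher.

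**Figure D1:**
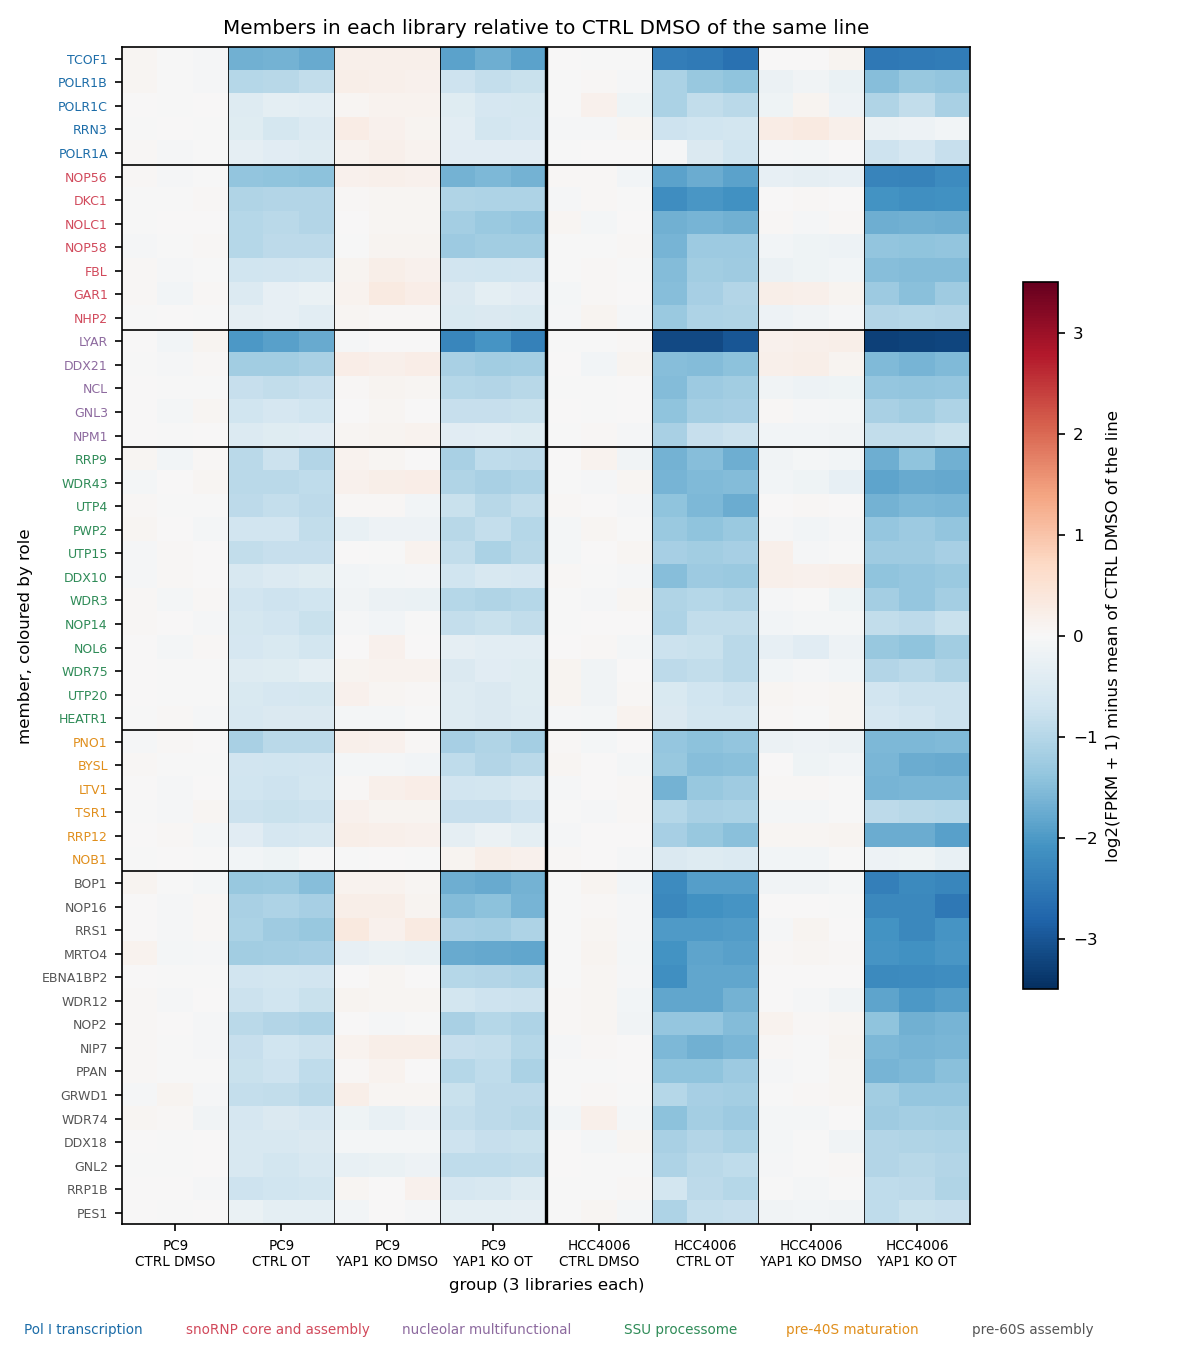
Each cell is log2(FPKM + 1) of 1 member (rows, grouped and coloured by role) in 1 library (columns, 3 per group) minus the mean of the CTRL DMSO libraries of the same line. The median over members lies between -0.75 and -0.70 in the 3 PC9 CTRL OT libraries and between -1.38 and -1.26 in the 3 HCC4006 CTRL OT libraries, and LYAR and TCOF1 are the darkest rows of both lines.

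Because the members moved together, their promoters were searched for the E-box CACGTG, a hexamer bound by MYC with its partner MAX and by other basic helix-loop-helix factors. The windows run from 250 bases before to 50 bases after the annotated start (RefSeq, GRCh38.p14, not the build of the expression table). They were available for 42 of 50 members in 52 windows, with no entry for DDX18, RRP1B, RRP12, TCOF1, NOLC1, BOP1, NOP58 and RRS1. The hexamer reads the same on both strands. It was present for 20 of 42 members (47.6%) and in 21 of 52 member windows (40.4%), compared with 2526 of 34943 windows of all genes (7.23%) and with 12.5% of the 9968 tested genes that had a window. The position was uneven: 15 of 52 member windows (28.8%) had the first base of a hexamer in the +1 to +45 stretch, compared with 0.879% of all windows and 1.0% of the windows of tested genes. In the 250 bases before the start alone, 5 of 42 members (11.9%) had one, compared with 6.32% of all windows and 11.2% of the tested genes. The windows below show 30 bases around the hexamer, 5′ to 3′ on the strand of the gene, for the members with an E-box whose FPKM in each library is given in this text; capitals mark the hexamer. EBNA1BP2 has 1 hexamer in each of its 2 annotated promoters.
LYAR (chr4:4290068-4290097, minus strand): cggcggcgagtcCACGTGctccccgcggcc
DDX21 (chr10:68956604-68956633, plus strand): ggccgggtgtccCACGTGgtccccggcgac
FBL (chr19:39846356-39846385, minus strand): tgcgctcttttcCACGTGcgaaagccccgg
GAR1 (chr4:109815781-109815810, plus strand): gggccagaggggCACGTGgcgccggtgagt
WDR43 (chr2:28894658-28894687, plus strand): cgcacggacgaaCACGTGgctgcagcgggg
RRP9 (chr3:51941892-51941921, minus strand): gggttcagctgcCACGTGagttctgcggcc
NOL6 (chr9:33473894-33473923, minus strand): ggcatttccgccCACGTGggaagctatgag
PNO1 (chr2:68157885-68157914, plus strand): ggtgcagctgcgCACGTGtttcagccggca
BYSL (chr6:41921515-41921544, plus strand): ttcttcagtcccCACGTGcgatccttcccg
MRTO4 (chr1:19251807-19251836, plus strand): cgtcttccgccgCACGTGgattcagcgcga
EBNA1BP2 (chr1:43172241-43172270, minus strand): tggcgctggagcgattcggtggCACGTGga
EBNA1BP2 (chr1:43172790-43172819, minus strand): gatattgttggcCACGTGggatcgaagacc
PES1 (chr22:30591880-30591909, minus strand): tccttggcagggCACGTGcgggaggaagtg
In LYAR the first base of the hexamer lay 64 bases before the start, in MRTO4 it was base +15 and in FBL base +7. A match describes the letters and is not a measured binding site.

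**Figure D2:**
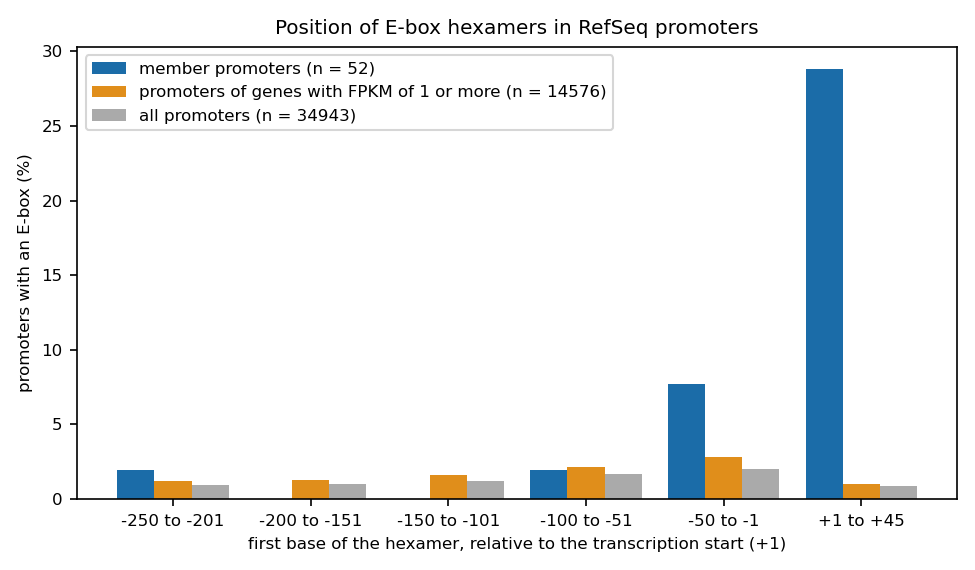
The bars give the percentage of promoter windows with an E-box whose first base falls in each stretch of the window (x axis, relative to the annotated start at +1), for windows of the members, of tested genes and of all genes. The members' bar stands at 28.8% just after the start, while the bars of all genes stay at or below 1.99% in every stretch.

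The fall was seen in members with and without the hexamer. The median log2 difference under OT was -0.68 in PC9 and -1.40 in HCC4006 for the 20 members with an E-box, -0.72 and -1.16 for the 22 without one, and -0.97 and -1.52 for the 8 with no window. These medians are descriptions with no test. A second motif, CCGGAA, the core bound by ETS factors that lie downstream of ERK, cannot overlap the E-box by its letters and was searched on both strands. It was present for 24 of 42 members (57.1%), against 17.2% of all windows and 34.2% of the tested genes. MYC mRNA itself, which is no member, was 41.4, 39.7 and 42 FPKM in the PC9 CTRL DMSO libraries and 28.3, 28.5 and 26.9 under OT, and 11.7, 11.4 and 11.3 against 2.23, 1.62 and 1.90 in HCC4006. On the log2 scale MYC therefore differed by -0.54 (PC9) and -2.10 (HCC4006), and the line difference in its response was -1.56 ± 0.10 (SE, adjusted p = 6.58e-11). Under DMSO MYC was lower in HCC4006 CTRL than in PC9 CTRL, by -1.75, while the median of the members was 0.28. The difference of its OT response between YAP1 KO and CTRL missed the threshold in both lines. It was -0.18 in PC9 (limma adjusted p = 0.0553) and 0.14 in HCC4006 (limma adjusted p = 0.494). The part of MYC in the members' levels was not tested.

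Among the 5 genes of RNA polymerase I transcription all fell, with log2 differences from -1.70 to -0.39 in PC9 and from -2.51 to -0.42 in HCC4006. TCOF1 encodes treacle, a nucleolar scaffold that holds RNA polymerase I at ribosomal DNA. It was measured at 29, 27.4 and 27.1 FPKM in PC9 CTRL DMSO and 8.02, 8.11 and 7.52 under OT, and at 35.8, 35.2 and 35 against 5.78, 5.49 and 4.96 in HCC4006. Every OT library was far below every DMSO library, and 28.3% of the mean DMSO level was left in PC9 and 15.3% in HCC4006. The log2 differences were -1.70 ± 0.05 (SE, adjusted p = 2.24e-11) and -2.51 ± 0.05 (SE, adjusted p = 8.85e-13). POLR1B, the second largest subunit of the polymerase, went from 7.61, 7.13 and 7.12 to 3.14, 3.26 and 3.53 FPKM in PC9 and from 10.6, 11.1 and 10.4 to 4.43, 3.67 and 3.43 in HCC4006. Its groups did not overlap in either line, with log2 differences of -0.94 and -1.28. POLR1A had the smallest log2(FPKM + 1) difference of this role in both lines, a scale that understates changes of low genes. In PC9 70.0% of its mean DMSO FPKM was left, against 75.3% for POLR1C. It went from 3.97, 3.72 and 3.77 to 2.85, 2.66 and 2.52 FPKM in PC9 and from 2.44, 2.49 and 2.5 to 2.36, 1.46 and 1.14 in HCC4006. In HCC4006 the first OT library came close to the DMSO libraries, and the difference of -0.42 ± 0.13 (SE, adjusted p = 0.0102) became -0.60 without it and missed the threshold when libraries were rescaled to the same sum (-0.26, adjusted p = 0.136). RRN3, the initiation factor that carries the polymerase to the promoter and a target of ERK and mTOR signalling, fell in both lines, with log2 differences of -0.51 (PC9) and -0.69 (HCC4006).

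The 7 snoRNP genes fell with log2 differences of -1.41 to -0.33 in PC9 and of -2.11 to -1.14 in HCC4006. NOP56, a core protein of the box C/D snoRNPs that guide ribose methylation, was at 133, 125 and 128 FPKM in PC9 CTRL DMSO and 48.4, 48 and 47.2 under OT. In HCC4006 NOP56 was at 139, 139.8 and 127 FPKM and 36, 39.4 and 36.4 under OT. The OT libraries lay well below the DMSO libraries in both lines, with log2 differences of -1.41 ± 0.03 (SE, adjusted p = 3.61e-12) and -1.83 ± 0.05 (SE, adjusted p = 1.19e-11). DKC1, the pseudouridine synthase of the box H/ACA snoRNPs, was at 76, 75.1 and 78.1 FPKM against 36.1, 37.3 and 37.2 under OT in PC9, and at 133, 141 and 136 against 29.6, 32.4 and 30.9 in HCC4006. HCC4006 was thus above PC9 under DMSO and below it under OT. The log2 differences were -1.03 ± 0.03 (SE, adjusted p = 1.23e-11) and -2.11 ± 0.04 (SE, adjusted p = 7.13e-13). NHP2, another H/ACA core protein, had the smallest mean change of the role. It was at 237, 239 and 235 FPKM against 189.7, 193 and 184 in PC9, and 222, 245 and 222 against 93.1, 108 and 111 in HCC4006. The groups stayed apart in both lines, with log2 differences of -0.33 in PC9 and -1.14 in HCC4006.

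LYAR, a zinc finger protein of the nucleolus with roles in precursor RNA processing, fell more than any other member in both lines. It was at 25.7, 23.7 and 27.1 FPKM in PC9 CTRL DMSO and 5.61, 6.13 and 6.78 under OT, and at 48.3, 48.4 and 50.6 against 4.63, 4.62 and 5.33 in HCC4006. The OT libraries kept 24.2% of the mean DMSO level in PC9 and 9.90% in HCC4006, with no overlap. The log2 differences were -1.89 ± 0.08 (SE, adjusted p = 5.27e-10) and -3.10 ± 0.05 (SE, adjusted p = 2.72e-13). DDX21, an RNA helicase that couples RNA polymerase I transcription to RNA processing, was at 50.5, 49.5 and 52 FPKM against 21.3, 21.3 and 22.6 in PC9 and 74.3, 69.6 and 78.7 against 25.9, 25.2 and 26.5 in HCC4006. The groups did not overlap, and the log2 differences were -1.18 and -1.48. NPM1 changed least of the 5 multifunctional proteins. Its FPKM was 1775, 1744 and 1798 against 1264, 1313 and 1355 in PC9 and 1697, 1751 and 1669.7 against 771, 981 and 1005 in HCC4006. Even here the highest OT library was below the lowest DMSO library of the line, and the log2 differences were -0.44 ± 0.03 (SE, adjusted p = 2.13e-08) in PC9 and -0.90 ± 0.08 (SE, adjusted p = 7.26e-07) in HCC4006, or -0.78 without the first HCC4006 OT library. NCL and GNL3, nucleolin and the nucleolar GTPase nucleostemin, had log2 differences of -0.83 and -0.67 (PC9) and of -1.33 and -1.25 (HCC4006).

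The 12 SSU processome genes, whose products cleave and fold the small-subunit precursor, fell within a narrow band in PC9, from -0.92 to -0.40, and from -1.61 to -0.59 in HCC4006. RRP9, a protein of the U3 snoRNP at the heart of the processome, was at 20.5, 18.4 and 20.1 FPKM against 9.70, 11.2 and 9.21 in PC9 and 17.4, 18.9 and 15.9 against 4.86, 5.50 and 4.67 in HCC4006. All OT libraries lay below all DMSO libraries of the line, with differences of -0.91 ± 0.08 (SE, adjusted p = 4.68e-07) and -1.61 ± 0.09 (SE, adjusted p = 3.20e-09). WDR43, of the UTP-A subcomplex that binds the precursor first, was at 21.7, 22.8 and 23.9 FPKM against 11.4, 11.4 and 11.7 in PC9 and 28.1, 27.3 and 29.5 against 8.50, 9 and 9.32 in HCC4006. It fell without overlap, by log2 differences of -0.92 and -1.56. HEATR1, a large scaffold of the same subcomplex, had the smallest log2 difference of the role by the mean of both lines, though not in PC9 alone. It went from 5.39, 5.60 and 5.30 to 3.38, 3.53 and 3.55 FPKM in PC9 and from 7.28, 7.09 and 8.18 to 5.01, 4.43 and 4.48 in HCC4006. Its groups were still apart, with log2 differences of -0.52 and -0.59. The other UTP-A members UTP4, UTP15 and WDR75 had log2 differences of -0.90, -0.82 and -0.40 in PC9, against -1.57, -1.17 and -0.91 in HCC4006. PWP2 and WDR3 of the UTP-B subcomplex differed by -0.74 and -0.70 in PC9, against -1.34 and -1.04 in HCC4006.

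Of the 6 pre-40S genes, 5 fell with log2 differences of -1.0 to -0.51 in PC9 and of -1.43 to -1.08 in HCC4006, and NOB1 stood apart. PNO1, which holds the end of the small-subunit RNA until it is cut, was at 29.2, 30.8 and 30.3 FPKM against 13.3, 15.1 and 15.3 in PC9 and 25.6, 24.1 and 25.4 against 9.23, 8.59 and 9 in HCC4006. The groups did not overlap in either line, with differences of -1.0 ± 0.06 (SE, adjusted p = 8.58e-09) and -1.39 ± 0.04 (SE, adjusted p = 1.99e-11). BYSL, which joins late processome and early pre-40S particles, was at 28.3, 27.4 and 27.1 FPKM against 17, 16.7 and 17.1 in PC9 and 12.6, 12.2 and 11.4 against 4.16, 3.68 and 3.74 in HCC4006. Its log2 differences were -0.67 and -1.43, with no overlap. NOB1 is the endonuclease that makes the final cut at the end of the small-subunit RNA, with PNO1 as its partner. NOB1 was at 34.6, 35.5 and 34.8 FPKM against 32.5, 31.6 and 33.8 under OT in PC9 CTRL, and 36.4, 35.8 and 34.1 against 24.8, 25.5 and 25.3 in HCC4006 CTRL. The PC9 groups lay close together without overlap, and the HCC4006 groups were farther apart. The PC9 difference of -0.10 ± 0.03 (SE, adjusted p = 0.0246) missed the threshold under median-of-ratios scaling (-0.03, adjusted p = 0.474), under scaling to the same sum (-0.04, adjusted p = 0.338), and without CTRL DMSO replicate 2, CTRL OT replicate 1 or CTRL OT replicate 2 (-0.09, -0.10 and -0.07). In HCC4006 it was -0.48 ± 0.04 (SE, adjusted p = 4.73e-07).

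The 15 pre-60S genes fell with log2 differences of -1.37 to -0.30 in PC9 and of -2.14 to -0.85 in HCC4006. BOP1, PES1 and WDR12 form the PeBoW complex, which acts in large-subunit RNA processing, and did not fall alike. BOP1 was at 38.2, 35.1 and 33.8 FPKM against 13.6, 14 and 12.1 in PC9 and 25.8, 27.6 and 24.2 against 4.85, 6.06 and 5.98 in HCC4006, without overlap. PES1 was at 55.2, 53.9 and 54.7 FPKM against 46.6, 43.2 and 42.6 in PC9 and 63.9, 68.7 and 62.4 against 30.4, 36.3 and 36.4 in HCC4006, also without overlap. The log2 differences of BOP1 were -1.37 ± 0.06 (SE, adjusted p = 5.21e-10) in PC9 and -2.02 ± 0.08 (SE, adjusted p = 1.52e-10) in HCC4006. Those of PES1 were -0.30 ± 0.04 (SE, adjusted p = 1.09e-05) and -0.90 ± 0.06 (SE, adjusted p = 5.86e-08), the smallest of the role by the mean of both lines, and the difference between the genes was not tested. NOP16, a pre-60S assembly factor, was at 53.3, 51.4 and 54.4 FPKM against 23.6, 24.7 and 23.2 in PC9 and 111, 114 and 109 against 22.6, 24.6 and 26 in HCC4006. HCC4006 was above PC9 under DMSO and the OT libraries of both lines overlapped. The log2 differences were -1.12 ± 0.05 (SE, adjusted p = 7.29e-10) and -2.14 ± 0.07 (SE, adjusted p = 2.47e-11). RRS1 and MRTO4, a partner of the 5S particle and a homologue of the ribosomal stalk protein P0, differed by -1.23 and -1.19 in PC9, against -1.97 and -1.94 in HCC4006.

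**Figure D3:**
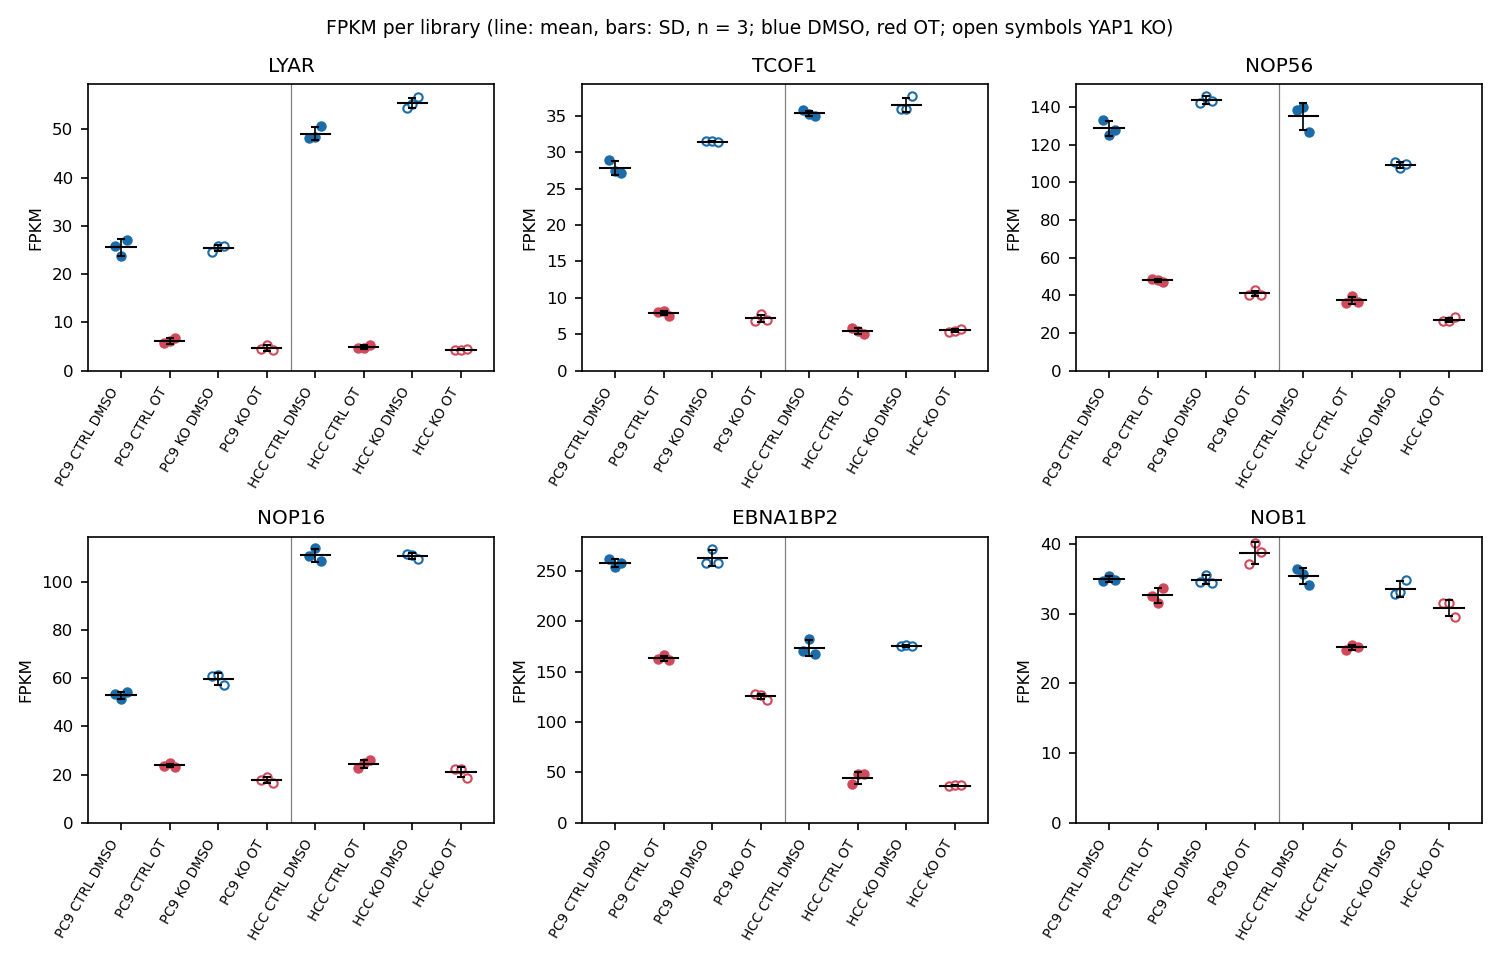
FPKM of 6 members in each of the 24 libraries (points), with group means (lines) and SD (bars, n = 3), axes starting at 0, DMSO in blue, OT in red and YAP1 KO as open symbols. LYAR, TCOF1, NOP56 and NOP16 sit low in every OT group, EBNA1BP2 is lower under OT in HCC4006 than in PC9, and NOB1 stays between 24.8 and 40.2 FPKM in all libraries.

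Genes of the same process that are not members moved the same way but less uniformly. Of 101 other ribosome biogenesis genes listed by role, 100 passed the filter, and under OT in CTRL cells 81 fell and 5 rose in PC9 (median -0.43), and 89 fell and 4 rose in HCC4006 (median -0.78). The backgrounds are the 40.9% lower and 32% higher, and 36.6% lower and 45% higher, of all tested genes in these comparisons. The genes that rose, named after their values were seen, were NOP53 (0.53 in PC9 and 0.95 in HCC4006), DDX47 (0.39 and 0.32) and TAF1D (0.30 and 0.39) in both lines, ZNF622 (0.38) and POLR1D (0.11) in PC9, and EFL1 (0.25) in HCC4006. NOP53 recruits the exosome to pre-60S particles, and TAF1D belongs to the promoter selectivity factor of RNA polymerase I.

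The fall was larger in HCC4006 than in PC9. In 1 fit of all 24 libraries, 45 of 50 members had a more negative OT response in HCC4006 CTRL than in PC9 CTRL at an adjusted p under 0.05, against a background of 26% of 13996 tested genes (39.3% were called less negative). The line difference was below 0 for all 50, and 47 were called without the first HCC4006 CTRL OT library. The median of this line difference was -0.58 over the members and 0.10 over all genes. Scaling every library to the same sum left 38 members, and scaling without short RNA rows left 36, with backgrounds of 18.5% and 17.4% lower and 48.6% and 50.8% higher; median-of-ratios scaling gave backgrounds of 33.0% lower and 31.9% higher. The order of the members was similar: across the 50 genes, which are not independent replicates, Pearson's r of the 2 responses was 0.84 and Spearman's rho 0.78, and 8 of the 10 largest falls in each line were the same genes (LYAR, TCOF1, NOP56, BOP1, RRS1, MRTO4, NOP16 and DKC1). EBNA1BP2, a pre-60S factor that also binds a viral nuclear antigen, had the largest line difference in this fit. It was at 262, 254 and 257 FPKM against 162, 166 and 161 in PC9 and 170.3, 182 and 168 against 38, 48.3 and 48.2 in HCC4006. HCC4006 OT libraries were far below those of the other CTRL groups, and the line difference was -1.28 ± 0.08 (SE, adjusted p = 7.27e-11). LYAR followed with -1.21 ± 0.09 (SE, adjusted p = 1.14e-09) and DKC1 with -1.08 ± 0.04 (SE, adjusted p = 6.98e-14). The place of EBNA1BP2 ahead of LYAR rests on the first HCC4006 CTRL OT library, where EBNA1BP2 was lowest. WDR12 was at 13.1, 12.4 and 12.9 FPKM against 7.18, 7.44 and 7.10 in PC9 and 21.1, 21.7 and 19 against 5.12, 5.14 and 5.79 in HCC4006. HCC4006 was again higher under DMSO and lower under OT, with a line difference of -1.02 ± 0.08 (SE, adjusted p = 5.11e-10). The smallest line differences were those of POLR1A, -0.02 ± 0.14 (SE, adjusted p = 0.892), and HEATR1, -0.07 ± 0.07 (SE, adjusted p = 0.388). POLR1A was called without the first HCC4006 CTRL OT library (-0.21), and HEATR1 was called under median-of-ratios scaling (-0.18).

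**Figure D4:**
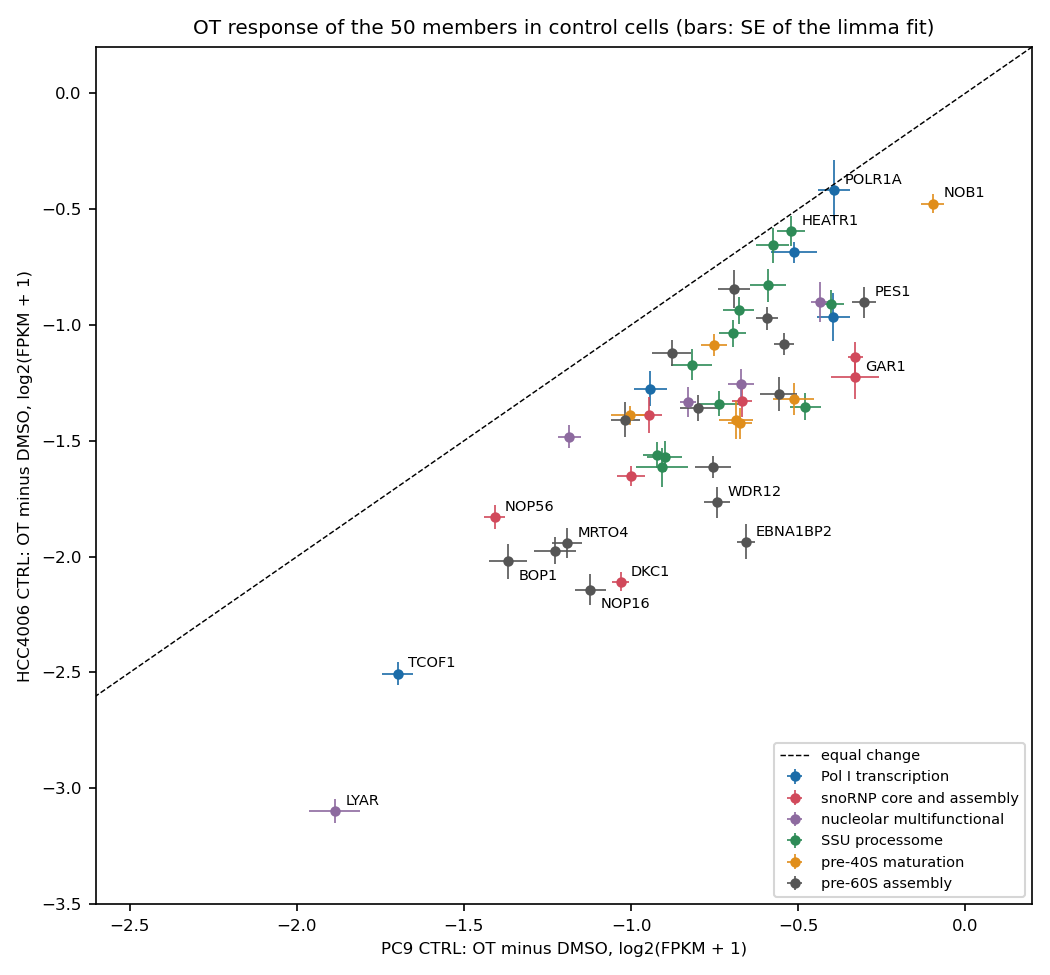
Each point is 1 of the 50 members, with its OT change in CTRL cells in PC9 (x axis) and HCC4006 (y axis) on the log2(FPKM + 1) scale, bars for the SE of the fit and a dashed line of equal change. All points lie below the dashed line, from LYAR at -1.89 and -3.10 to NOB1 at -0.10 and -0.48.

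Without the drugs the lines differed gene by gene. Under DMSO 29 members were higher and 12 lower in HCC4006 CTRL than in PC9 CTRL, against backgrounds of 39.2% higher and 43.4% lower, with a median of 0.28 beside -0.04 over all genes. GAR1, an H/ACA core protein, was at 57.9, 62.3 and 60.7 FPKM in HCC4006 and 24.2, 22 and 24.3 in PC9. NOL6, an SSU processome protein also called nucleolar RNA-associated protein, was at 14.4, 14.7 and 13.6 and 5.23, 4.95 and 5.43. RRN3 was at 47, 47.1 and 50.1 and 19.3, 19.6 and 19.4. All 3 were higher in every HCC4006 library, by 1.32 ± 0.09 (SE, adjusted p = 2.67e-11), 1.29 ± 0.06 (SE, adjusted p = 9.02e-14) and 1.26 ± 0.06 (SE, adjusted p = 6.26e-14). POLR1C, a subunit shared by RNA polymerases I and III, was at 13.4, 15.1 and 12.2 FPKM in HCC4006 and 31.7, 31 and 31.8 in PC9. BYSL was at 12.6, 12.2 and 11.4 and 28.3, 27.4 and 27.1, and fibrillarin, FBL, the methyltransferase of the box C/D snoRNPs, at 134, 138 and 135 and 271, 254 and 259. These 3 were lower in every HCC4006 library, by -1.16 ± 0.09 (SE, adjusted p = 1.08e-10), -1.13 ± 0.05 (SE, adjusted p = 4.21e-14) and -0.94 ± 0.06 (SE, adjusted p = 2.43e-12).

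YAP1 KO moved the members little without the drugs. In PC9 under DMSO 17 members were higher and 5 lower in YAP1 KO than in CTRL, against backgrounds of 19.8% higher and 20% lower, and the median difference was 0.07. The largest were RRS1, 19.6, 17.1 and 19.1 FPKM in YAP1 KO against 15.4, 14.6 and 15.6 in CTRL, and MRTO4, 32.4, 33.6 and 32.6 against 43, 37.6 and 38. RRS1 was higher in every YAP1 KO library and MRTO4 lower in every one, by 0.27 ± 0.06 (SE, adjusted p = 0.0042) and -0.26 ± 0.05 (SE, adjusted p = 9.27e-04). GAR1 was at 25.6, 29.3 and 27.9 FPKM against 24.2, 22 and 24.3, a difference of 0.22 ± 0.07 (SE, adjusted p = 0.0251) that missed the threshold without CTRL replicate 2 (0.18), YAP1 KO replicate 2 (0.18) or YAP1 KO replicate 3 (0.21). The count of 17 became 9 without CTRL replicate 2, 11 without CTRL replicate 3, 8 without YAP1 KO replicate 2 and 10 without YAP1 KO replicate 3, and the count of 5 became 3 without CTRL replicate 1 (all DMSO libraries). Of the 100 other ribosome biogenesis genes 31 were higher and 9 lower in this comparison. In HCC4006 under DMSO 3 members were higher (DDX21, LYAR and RRN3) and 4 lower (NOP56, NOL6, PNO1 and WDR43), against backgrounds of 9.2% and 8.65%. NOP56 was at 111, 108 and 109 FPKM in YAP1 KO against 139, 139.8 and 127 in CTRL, with no overlap and a difference of -0.30 ± 0.05 (SE, adjusted p = 0.00197). NOL6 was at 11.5, 10.6 and 12.4 against 14.4, 14.7 and 13.6, again without overlap, with -0.28 ± 0.07 (SE, adjusted p = 0.0169), a call lost without CTRL replicate 1 (-0.27) or 2 (-0.26) or without YAP1 KO replicate 1 (-0.28) or 2 (-0.23) of the DMSO libraries. RRN3 was at 57.3, 59.5 and 54.7 FPKM against 47, 47.1 and 50.1, higher in every library, by 0.25 ± 0.05 (SE, adjusted p = 0.00359). The HCC4006 count of 3 became 1 when replicate 1 or 2 of either DMSO group was left out, and likewise for replicate 2 of YAP1 KO OT. The count of 4 became 2 without replicate 1 or 2 of CTRL DMSO, or without replicate 2 of YAP1 KO DMSO. It became 9 without replicate 1 of CTRL OT, and 1 under scaling to the same sum.

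Under OT the YAP1 KO cells of PC9 had lower levels than CTRL for 24 members and higher levels for 6, against backgrounds of 25.2% lower and 28.5% higher. The median difference was -0.13, beside 0.02 over all genes, and scaling to the same sum without short RNA rows gave 17 lower and 8 higher, with backgrounds of 20.8% and 36.1%. MRTO4 was at 10.8, 10.7 and 10.4 FPKM in YAP1 KO OT against 16.3, 16.6 and 17.2 in CTRL OT. NOP16 was at 17.7, 19 and 16.6 against 23.6, 24.7 and 23.2, and EBNA1BP2 at 127, 127 and 122 against 162, 166 and 161. All YAP1 KO libraries lay below all CTRL libraries for these 3, by -0.61 ± 0.05 (SE, adjusted p = 5.34e-07), -0.41 ± 0.05 (SE, adjusted p = 2.03e-05) and -0.38 ± 0.03 (SE, adjusted p = 3.54e-07). The 6 that were higher were UTP20, RRP1B, POLR1B, RRP12, NOB1 and NOL6, at log2 differences of 0.13 to 0.24. Of the other ribosome biogenesis genes 13 were higher and 22 lower. In HCC4006 under OT 15 members were lower and 2 higher in YAP1 KO (backgrounds 16.4% and 27.2%), with 11 lower and 5 higher under scaling to the same sum without short RNA rows. RRN3 was at 42, 42.5 and 44.7 FPKM in YAP1 KO OT against 28.6, 29.3 and 30.5 in CTRL OT, higher in every library, by 0.53 ± 0.05 (SE, adjusted p = 3.10e-06). NOL6 was at 5.10, 4.70 and 5.49 against 8.01, 7.79 and 6.94, and RRP12, a factor of pre-40S maturation and nuclear export, at 3.91, 3.95 and 3.41 against 6.27, 5.53 and 5.01. Both were lower in every YAP1 KO library, by -0.49 ± 0.07 (SE, adjusted p = 1.66e-04) and -0.47 ± 0.07 (SE, adjusted p = 1.98e-04). NOP56 was also lower, at 26.1, 26.1 and 28.3 FPKM against 36, 39.4 and 36.4, by -0.46. Of the other ribosome biogenesis genes 20 were higher and 15 lower. Without CTRL OT replicate 1 the members' counts were 19 lower and 3 higher.

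A test of the line difference in the YAP1 KO effect under OT called 11 members more positive and 8 more negative in HCC4006. These shares are near the backgrounds of 24.4% and 18% over all genes, so the counts are no result about the members, and a fit of only the groups compared gave 7 and 3. NOL6 and RRP12 were lower in HCC4006 YAP1 KO and higher in PC9 YAP1 KO, with line differences of -0.73 ± 0.09 (SE, adjusted p = 1.43e-06) and -0.71 ± 0.09 (SE, adjusted p = 4.10e-06). In PC9 NOL6 was at 4.02, 3.84 and 3.76 FPKM in YAP1 KO OT against 3.12, 3.29 and 2.95 in CTRL OT, and RRP12 at 5.15, 5.60 and 5.04 against 4.82, 4.01 and 4.15. RRN3 went the other way, with a line difference of 0.55 ± 0.08 (SE, adjusted p = 2.64e-05), and was at 14.7, 12.2 and 12.6 against 14.1, 12.3 and 13.6 in PC9, where the groups overlapped. The count of 8 became 5 without PC9 CTRL OT replicate 1, PC9 YAP1 KO OT replicate 3, HCC4006 YAP1 KO OT replicate 2 or HCC4006 YAP1 KO OT replicate 3.

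The OT response itself depended on genotype for part of the set. In PC9 22 members fell further in YAP1 KO than in CTRL cells and 1, NOB1, went the other way, against backgrounds of 13.8% and 13.2%, and the median interaction was -0.15 beside 0.01 over all genes. By role, 6 of 7 snoRNP genes, 4 of 5 multifunctional proteins and 7 of 15 pre-60S genes were called lower, as were 1 of 12 SSU processome genes (WDR43), 2 of 5 RNA polymerase I genes and 2 of 6 pre-40S genes, and differences between roles were not tested. GAR1 and LYAR kept their calls without replicate 3 of CTRL DMSO, replicate 1 of CTRL OT or of YAP1 KO DMSO, or replicate 2 of YAP1 KO OT. Their calls missed the threshold without any 1 of the remaining PC9 libraries, at -0.33 to -0.26 for GAR1 and -0.35 to -0.28 for LYAR. That of PNO1 did so without CTRL DMSO replicate 1, CTRL OT replicate 2 or 3, YAP1 KO DMSO replicate 1 or 2, or YAP1 KO OT replicate 1 or 3, at -0.25 to -0.23, and that of POLR1C without CTRL OT replicate 2 (-0.23). Among the members named here, BYSL, PNO1, FBL, GAR1 and POLR1C were not called under scaling to the same sum without short RNA rows. NOP16 was at 61.1, 61.5 and 57.1 FPKM in YAP1 KO DMSO and 17.7, 19 and 16.6 in YAP1 KO OT, and its interaction was -0.58 ± 0.07 (SE, adjusted p = 7.06e-05). BOP1 was at 39.1, 39 and 37.7 and 10.3, 9.82 and 10.6, with -0.45 ± 0.08 (SE, adjusted p = 0.00135). EBNA1BP2 was at 258, 272 and 258 and 127, 127 and 122, with -0.40 ± 0.04 (SE, adjusted p = 1.68e-05). For all 3 the YAP1 KO mean was above the CTRL mean under DMSO, with overlapping libraries for BOP1 and EBNA1BP2, and every YAP1 KO library was below every CTRL library under OT. NOB1 was at 34.6, 35.6 and 34.4 FPKM in YAP1 KO DMSO and 37.1, 40.2 and 38.8 in YAP1 KO OT. Every OT library was above every DMSO library there, by 0.15 ± 0.03 (SE, adjusted p = 0.00207), and the interaction was 0.24 ± 0.05 (SE, adjusted p = 0.00343). Among the 100 other ribosome biogenesis genes 19 were called lower. Scaling to the same sum gave 17 lower and 2 higher members with backgrounds of 10.9% lower and 16.7% higher, and scaling without short RNA rows 14 and 2 with backgrounds of 10.1% and 18.8%.

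In HCC4006 3 members had a more negative interaction (RRP12, LYAR and DDX21) and 2 a more positive one (RRN3 and NOB1), against backgrounds of 8.18% and 10.5%. Without CTRL OT replicate 1 the counts were 9 and 3, and scaling without short RNA rows gave 3 and 4. The DDX21 call missed the threshold under scaling to the same sum (-0.27, adjusted p = 0.0616) and without short RNA rows (-0.23, adjusted p = 0.113). It was also lost without replicate 1 or 2 of either DMSO group, CTRL OT replicate 3 or any 1 YAP1 KO OT replicate, at -0.26 to -0.20. RRP12 was at 14.9, 15.7 and 15.6 FPKM in CTRL DMSO and 16.1, 16.3 and 16.5 in YAP1 KO DMSO. It was lower in YAP1 KO under OT, as given above, and the interaction was -0.55 ± 0.10 (SE, adjusted p = 0.00232). LYAR was at 54.5, 55.3 and 56.7 FPKM in YAP1 KO DMSO and 4.16, 4.35 and 4.41 in YAP1 KO OT, which left 7.76% of the DMSO level, and its interaction was -0.32 ± 0.07 (SE, adjusted p = 0.0102). NOB1 was at 32.8, 33.1 and 34.8 and 31.5, 31.5 and 29.5, and its interaction was 0.36 ± 0.06 (SE, adjusted p = 0.00157). Its fall in YAP1 KO, -0.12, turned to 0.073 and 0.083 under both scalings to the same sum and missed the threshold without replicate 3 of YAP1 KO DMSO (-0.092) or of YAP1 KO OT (-0.088). NOB1 was the 1 member with a positive interaction called in both lines; whether the lines differ in it was not tested.

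**Figure D5:**
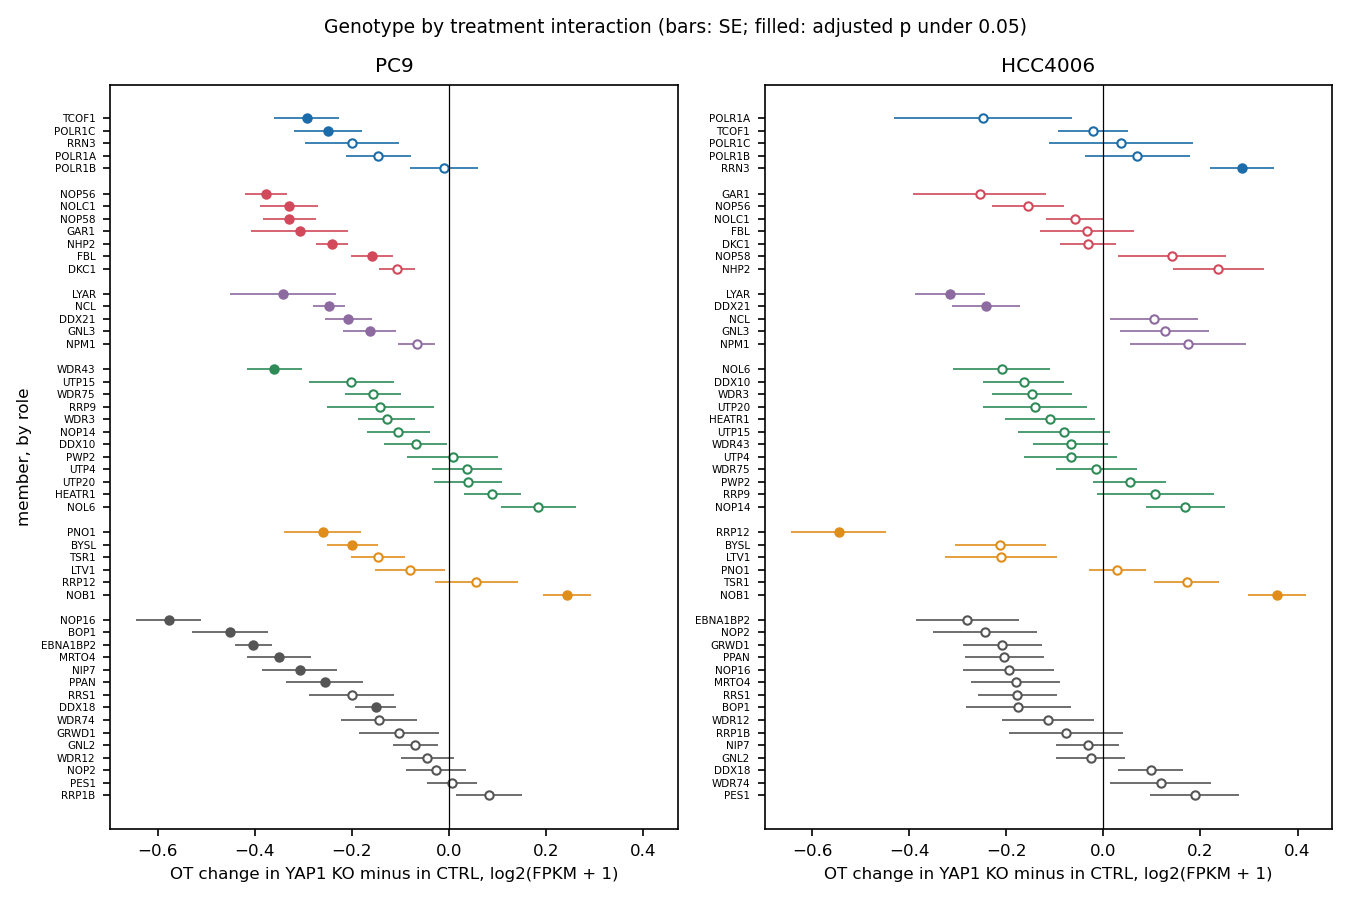
Points give the OT change in YAP1 KO minus that in CTRL (log2(FPKM + 1) scale) for each member by role, with SE bars, PC9 on the left and HCC4006 on the right, and filled points for an adjusted p under 0.05. In PC9 22 filled points lie left of 0 and NOB1 lies right of it, while HCC4006 has 3 filled points on the left and 2 on the right.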

How the data were processed

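Stranded mRNA libraries were prepared from TRIzol RNA, per the labels' protocols. The values are FPKM, which the authors deposited as 1 table with 24 columns of libraries. Cufflinks 2.2.1, STAR 2.5.1b, DESeq2 1.10.1 and the hg19 (GRCh37) build appear in the submitters' processing notes without a role or order. Counts and depth are not given in the sources used here, so precision is read from the spread of the 3 libraries within each group. In the fits this spread is estimated jointly over the 4 groups of a line, or over all 8 groups in the fit of both lines. The libraries of a group therefore also enter the SE and p-values of comparisons that do not use that group. The members and lists were chosen with earlier results of these data known.

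Values were tested as log2(FPKM + 1) with limma 3.58.1 in R 4.3.3 (group means model, moderated variance with trend), which understates changes of low genes. Genes with FPKM of 1 or more in 3 or more libraries were kept: 12685 in PC9 and 13113 in HCC4006 (12 libraries of 4 groups each), and 13996 in the fit of both lines. P-values were adjusted by Benjamini and Hochberg over all genes kept, and an adjusted p under 0.05 is a call. Differences are log2 of the first group minus the second. The fit was tested on simulated data. Members with values in every library were named by rule: per role the 2 largest and the smallest mean OT changes in CTRL, per line the 3 largest interactions and YAP1 KO differences, the 4 largest and 2 smallest line differences in the OT response, the 3 highest and 3 lowest line differences under DMSO, and any member that rose or missed the threshold under OT. Replicate numbers come from the titles. Deviations of same-numbered libraries correlated above 0.1 in all 3 pairs only for HCC4006 CTRL DMSO with CTRL OT (0.134 to 0.146). The highest single value, 0.236, was in HCC4006 CTRL OT with YAP1 KO DMSO. Correlations this weak do not settle whether the numbers pair libraries. The main fits used no pairing, and a replicate block was run as an alternative. Alternatives were other pseudocounts, filters, scalings, a replicate block, fits of single comparisons, no variance trend and leaving out each library. Protein sequences were not analysed here.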

Additional observations from a re-analysis of the deposited data

Results flagged for a closer look

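Responses that differed between genotypes or lines under a test of the difference are listed here. In PC9 the OT response was more negative in YAP1 KO than in CTRL for 22 members (background 13.8% of all genes) and more positive for 1 (background 13.2%), with NOP16 at -0.58, BOP1 at -0.45 and EBNA1BP2 at -0.40 on the log2 scale. In HCC4006 3 members were more negative and 2 more positive, where 8.18% and 10.5% of all genes were called (a larger share than of the members). The values were RRP12 at -0.55, NOB1 at 0.36 and LYAR at -0.32. Between lines, the OT response in CTRL cells was more negative in HCC4006 for 45 members, against 26% of all genes, with EBNA1BP2 at -1.28, LYAR at -1.21, DKC1 at -1.08 and WDR12 at -1.02. The YAP1 KO difference under OT was more negative in HCC4006 for 8 members and more positive for 11, near the 18% and 24.4% of all genes, with NOL6 at -0.73, RRP12 at -0.71 and RRN3 at 0.55.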

How the results depend on the processing

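The fall under OT in CTRL cells held for 49 or 50 members under each scaling, pseudocount and left-out library tried. At a filter of 5 FPKM, which POLR1A and UTP20 did not pass, it held for the other 48. The replicate block left 50 lower in both lines and changed no count of members by over 1.5 times. Values of single members were tallied only for the 28 members named by the rule above. A value called in neither the main fit nor the alternative was left out. Of the values tallied, 5690 kept direction and call, 223 lost the call, 89 gained one and 2 changed sign. The 2 were those of NOB1 in HCC4006 YAP1 KO, from -0.12 to 0.073 and 0.083 under both scalings to the same sum. Smaller counts depended more on the settings, and the cause was not tested. In HCC4006 under DMSO the YAP1 KO difference went from 3 higher to 1 under median-of-ratios scaling and from 4 lower to 1 under both sum scalings and 7 in a fit of its own groups. The PC9 interaction went from 1 higher to 2 under both sum scalings and from 22 lower to 14 without short RNA rows. That scaling also moved the higher counts from 2 to 5 for HCC4006 YAP1 KO under OT and from 2 to 4 for the HCC4006 interaction. Fits of single comparisons moved HCC4006 YAP1 KO under OT from 15 lower to 8, and the line difference of YAP1 KO under OT from 11 higher to 7 and from 8 lower to 3. E-boxes before the start alone were found for 5 members, not 20. Leaving out 1 library gave 8 to 19 higher and 3 to 5 lower for PC9 YAP1 KO under DMSO, 1 to 4 and 2 to 9 for HCC4006 YAP1 KO under DMSO, 2 to 9 lower for the HCC4006 interaction, 5 to 9 lower for the line difference of YAP1 KO under OT, 10 to 19 lower for HCC4006 YAP1 KO under OT and 16 to 23 lower for the PC9 interaction. Median-of-ratios scaling gave 20.1% of all genes lower and 20.4% higher for HCC4006 YAP1 KO under OT. Depth is not known from the table, so counting error could not be given.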
